A study of Mus musculus with 12 samples.

Results

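Genes that cells use in G2 phase and in mitosis were followed through the epidermis of newborn mice that carried Cre with floxed alleles of Llgl1 and Llgl2, of Trp53, or of all 3 genes. The 34 genes were a fixed list of names, each matched to the gene name in a table of read counts for 46078 genes, and no measured value entered the match. All 34 were found, and all 34 passed the filter on low counts that left 14582 genes for testing. Polyadenylated RNA was sequenced from 12 epidermises, 3 in each of 4 groups. Llgl cKO Trp53 het mice carried K14-Cre, floxed alleles of both Llgl1 and Llgl2 on both chromosomes, and Trp53 +/flox. Llgl cKO mice carried K14-Cre and the same floxed Llgl1 and Llgl2 alleles. Trp53 het mice carried K14-Cre and Trp53 +/flox. Control mice carried K14-Cre alone, so the Cre transgene was shared by all 12 mice. K14-Cre expresses Cre recombinase in basal keratinocytes, so these cells and their descendants recombine the floxed alleles and other cells of the skin keep them. Llgl1 and Llgl2 are the mammalian homologues of the Drosophila polarity gene lethal giant larvae, and Trp53 encodes the tumour suppressor p53. The series asked how epidermal gene expression changes when Llgl1 and Llgl2 are mutated, and whether losing an allele of Trp53 alters that change.

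A dividing cell copies its DNA in S phase, builds up the mitotic cyclins and kinases in G2, and then separates its chromosomes and splits in M phase. Most genes of the G2 and M programme are silenced in resting cells and switched on late in the cycle, through the DREAM and MuvB complexes, B-Myb and FOXM1 acting at a promoter element called the CHR, together with NF-Y bound to CCAAT boxes. In epidermis dividing cells lie in the basal layer and, within the skin preparation, in the growing hair follicle.

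CHR or CCAAT letters were found in most but not all of the promoters of these genes, and 5 are shown to let the arrangement be seen. Cdc20 and Cenpa are shown because they had the smallest p-values of the 34 in the comparison of Llgl cKO Trp53 het with control. Plk1 and Mki67 stand for the mitotic kinases and the chromosome structure genes. Ccnb1 stands for promoters with CCAAT boxes but neither CHR form that was searched for, TTTGAA or TTCGAA. Each sequence is the RefSeq window on GRCm38.p6 from 250 bases before the annotated start of the gene to 50 bases after it, written 5′ to 3′ on the strand of the gene. Capitals mark TTTGAA, a CHR, and CCAAT or its reverse complement ATTGG. The windows lie at chr4:118437294-118437593 on the minus strand for Cdc20, chr5:30666636-30666935 on the plus strand for Cenpa, chr7:122159185-122159484 on the plus strand for Plk1, chr7:135716330-135716629 on the minus strand for Mki67 and chr13:100786437-100786736 on the minus strand for Ccnb1.
Cdc20: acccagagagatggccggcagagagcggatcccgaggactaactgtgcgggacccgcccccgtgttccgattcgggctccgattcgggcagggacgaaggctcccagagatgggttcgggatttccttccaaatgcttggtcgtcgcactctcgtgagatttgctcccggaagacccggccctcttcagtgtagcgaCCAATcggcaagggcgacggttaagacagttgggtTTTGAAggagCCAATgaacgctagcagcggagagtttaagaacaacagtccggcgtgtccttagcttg
Cenpa: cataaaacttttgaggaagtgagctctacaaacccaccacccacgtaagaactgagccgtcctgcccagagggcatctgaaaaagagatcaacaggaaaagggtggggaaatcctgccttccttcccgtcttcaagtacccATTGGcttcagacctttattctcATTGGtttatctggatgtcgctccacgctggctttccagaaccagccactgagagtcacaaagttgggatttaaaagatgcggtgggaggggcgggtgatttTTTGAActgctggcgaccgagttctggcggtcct
Plk1: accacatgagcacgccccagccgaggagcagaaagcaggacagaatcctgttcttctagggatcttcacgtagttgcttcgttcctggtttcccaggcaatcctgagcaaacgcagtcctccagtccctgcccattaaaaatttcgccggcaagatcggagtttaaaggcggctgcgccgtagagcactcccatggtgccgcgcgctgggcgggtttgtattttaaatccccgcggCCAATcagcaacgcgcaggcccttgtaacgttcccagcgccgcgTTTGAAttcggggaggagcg
Mki67: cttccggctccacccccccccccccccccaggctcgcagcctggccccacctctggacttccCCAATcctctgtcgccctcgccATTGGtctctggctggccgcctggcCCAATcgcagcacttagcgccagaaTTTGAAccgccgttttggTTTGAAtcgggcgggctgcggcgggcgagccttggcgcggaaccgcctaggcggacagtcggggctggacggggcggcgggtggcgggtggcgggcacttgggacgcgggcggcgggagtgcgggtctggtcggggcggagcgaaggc
Ccnb1: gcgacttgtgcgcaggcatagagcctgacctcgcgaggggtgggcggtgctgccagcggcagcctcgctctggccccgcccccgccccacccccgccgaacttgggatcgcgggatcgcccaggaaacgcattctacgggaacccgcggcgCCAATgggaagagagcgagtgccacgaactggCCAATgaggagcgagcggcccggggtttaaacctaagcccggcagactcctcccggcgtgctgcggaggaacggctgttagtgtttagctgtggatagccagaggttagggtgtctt

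RefSeq windows were found by symbol for 29 of the 34 genes, and none was used for Aurkb, Ccna2, Foxm1, Kif20a and Tpx2. On either strand TTTGAA stood in the windows of 23 of the 29 genes (79.3%), against 20.2% of the 27025 genes with a window and 14.4% of the 10440 genes that were both tested and had a window. The second CHR form, TTCGAA, stood in 3 of the 29 (10.3%), against 1.80% of all genes with a window. CCAAT stood in 23 of the 29 on either strand (79.3%), against 41.1% of all genes with a window and 42.5% of those tested. A CHR of either form together with CCAAT was found for 21 of the 29 (72.4%), against 8.61% and 6.93%. Neither was found for Birc5, Nuf2 and Nusap1. At least 2 CCAAT boxes were found for 17 of the 29 (58.6%), against 13.3% and 16.0%. Of the 33 CHR matches, 23 lay between 60 bases before and 50 bases after the start, in 22 genes, and 1 shared a base with a CCAAT match, and a match is a description of the letters and not a measured binding site.

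**Figure D1:**
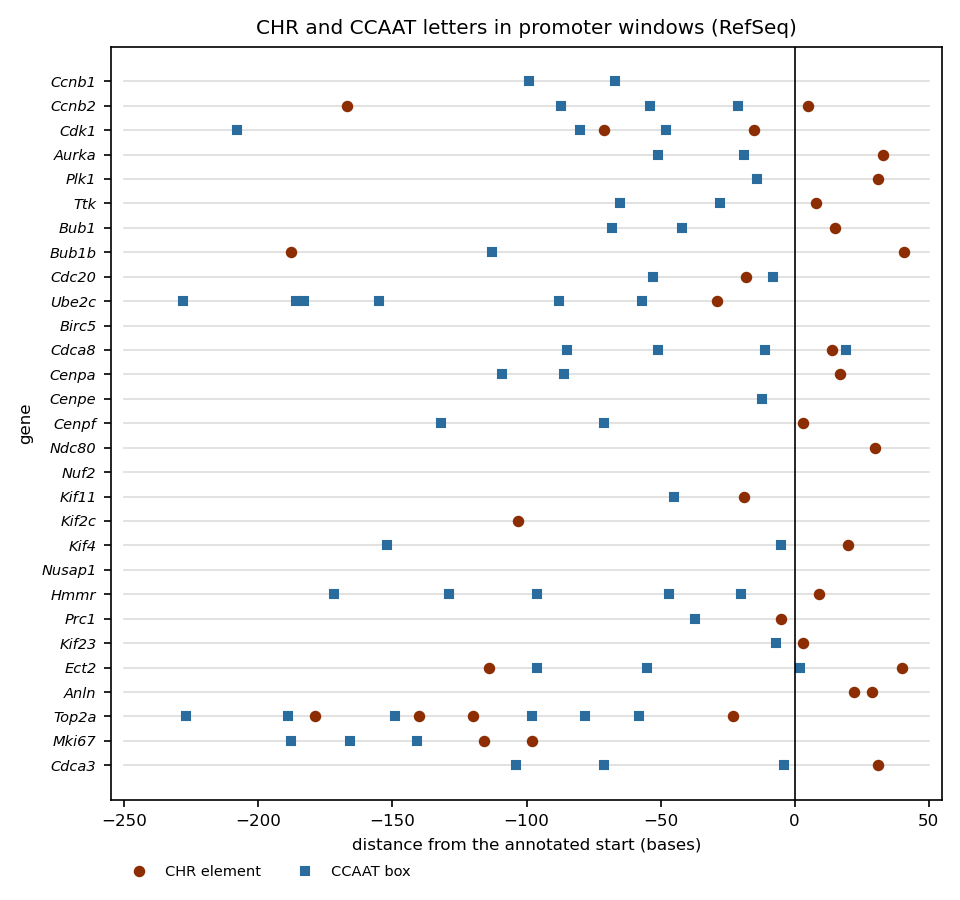
Positions of CHR letters (TTTGAA or TTCGAA, circles) and CCAAT letters (squares), on either strand, in the promoter windows of 29 G2 and M phase genes. The horizontal axis is the distance in bases from the annotated RefSeq start, and each row is a gene, with the first listed window where a gene has several. Of the 33 CHR matches, 23 lie from 60 bases before to 50 bases after the start, and most CCAAT boxes lie upstream of them.

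Levels are given as CPM, a gene's reads relative to the TMM-scaled size of its library, and changes as log2 fold changes. Depth ran from 6738720 to 14509507 counts per library, and control 1 and Trp53 het 2 were the shallowest, with 6738720 and 6901424. The sample labels were checked against the targeted genes. Llgl2 stood at 6.12, 12.4 and 7.03 CPM in Llgl cKO Trp53 het, 7.63, 7.73 and 9.69 CPM in Llgl cKO, 109, 97.1 and 66.5 CPM in Trp53 het and 110, 84.9 and 65.4 CPM in control. Llgl1 went against the labels, at 187, 248 and 211 CPM in Llgl cKO Trp53 het and 280, 218 and 269 CPM in Llgl cKO, against 140, 137 and 122 CPM in Trp53 het and 173, 127 and 115 CPM in control, so that every Llgl library exceeded every other library. The part of Llgl1 that was floxed is not given in the sources used here, and the gene total also counts reads outside it, so these counts show a lower level of Llgl2 alone. The group names Llgl cKO and Llgl cKO Trp53 het follow the genotype labels, not these counts. Trp53 stood at 98.3, 67.8 and 65.9 CPM in Llgl cKO Trp53 het and at 61.8, 60.9 and 115 CPM in Trp53 het, against 120, 122 and 112 CPM in Llgl cKO and 130, 109 and 123 CPM in control. The library labelled Trp53 het 3 therefore had Trp53 within the range of the controls. It is called Trp53 het 3 here by its label alone. Keratinocyte markers were abundant in all 12 libraries, with a summed level of 7 basal markers between 15330 and 21418 CPM.

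The G2 and M phase genes were evenly high in the Llgl cKO Trp53 het and Llgl cKO mice, and split into low and high mice in the Trp53 het and control groups. Their summed level was 1819, 2052 and 2310 CPM in Llgl cKO Trp53 het 1, 2 and 3, and 1583, 1643 and 1639 CPM in Llgl cKO. It was 545, 568 and 2805 CPM in Trp53 het and 456, 627 and 2410 CPM in control. The sums thus averaged 2060 ± 245 CPM in Llgl cKO Trp53 het, 1621 ± 33.4 CPM in Llgl cKO, 1306 ± 1299 CPM in Trp53 het and 1164 ± 1082 CPM in control (SD, n = 3 each). Trp53 het 3 and control 3 stood apart from the other 2 mice of their groups, and every comparison with these groups rests on them. Control 1, control 2, Trp53 het 1 and Trp53 het 2 lay below all 6 libraries of the Llgl groups for 34 of 34 genes each. Trp53 het 3 lay above all 6 for 25 genes and within their range for 9, and control 3 above all 6 for 12 and within their range for 22. In bulk tissue fewer dividing cells and less RNA per cell cannot be told apart.

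**Figure D2:**
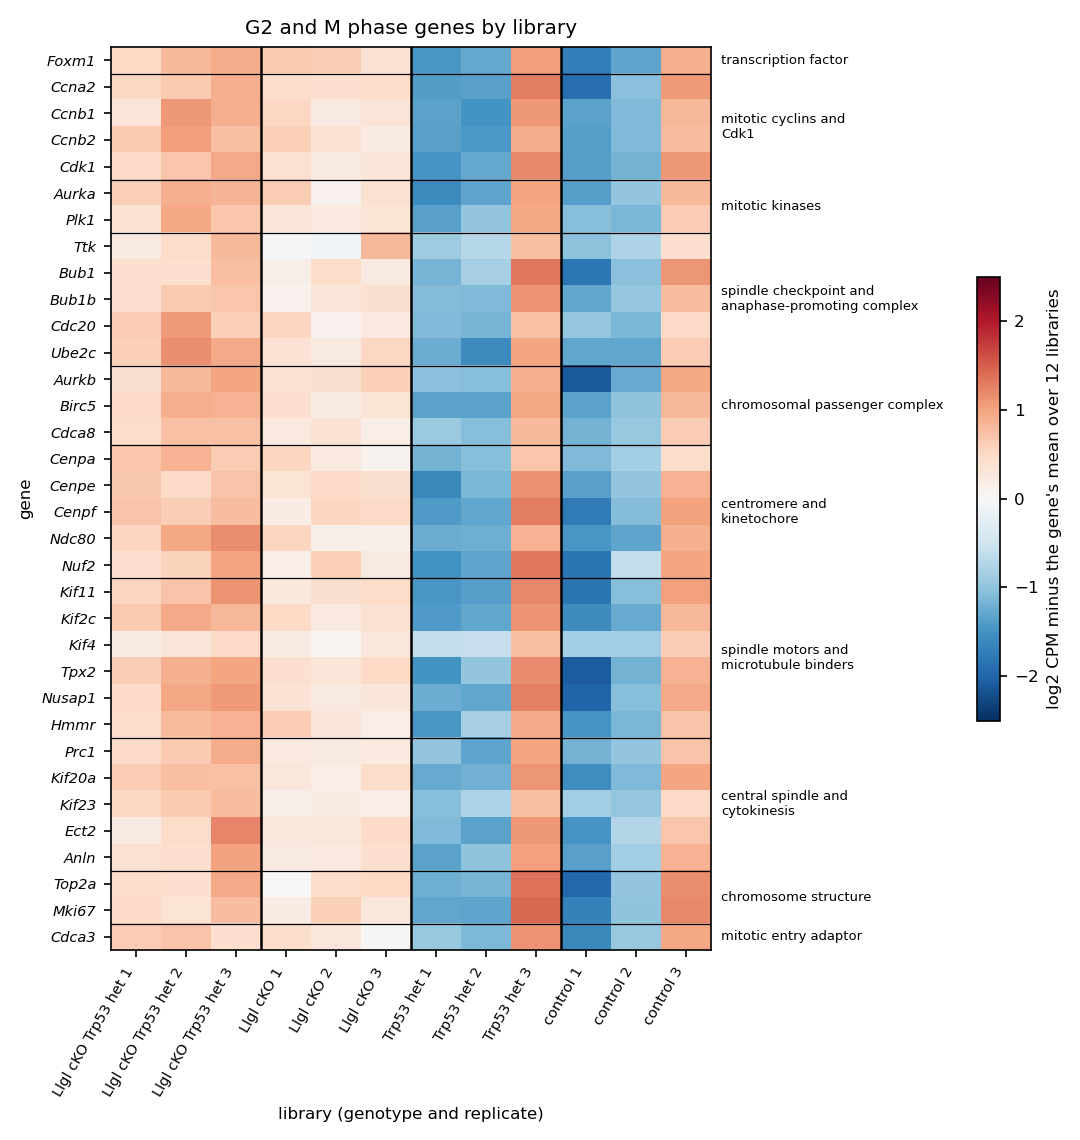
Level of each of the 34 G2 and M phase genes (rows, grouped by role) in each of the 12 libraries (columns), as log2 CPM minus the mean of that gene over the 12 libraries. All 6 libraries of the Llgl groups are near or above the mean, Trp53 het 1 and 2 and control 1 and 2 are below it for every gene, and Trp53 het 3 and control 3 are above it.

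Group means hid this split. They ran in the order Llgl cKO Trp53 het, Llgl cKO, Trp53 het and control for 34 of 34 genes, whereas the middle library of each group kept that order for 14 of 34. By the middle library both Llgl groups exceeded both other groups for 34 of 34 genes, Llgl cKO Trp53 het exceeded Llgl cKO for 33 of 34, and Trp53 het exceeded control for 14 of 34. Within a group, the ratio of the highest to the lowest library had a median over the 34 genes of 1.35 in Llgl cKO Trp53 het (from 1.08 for Kif20a to 2.02 for Ect2) and 1.22 in Llgl cKO (1.01 to 1.86). It was 5.33 in Trp53 het (2.54 for Kif4 to 7.09 for Nuf2) and 4.66 in control (2.73 to 8.69 for Top2a). Over all genes tested the same ratio had medians of 1.33, 1.30, 1.36 and 1.41 in Llgl cKO Trp53 het, Llgl cKO, Trp53 het and control. Over the 12 libraries the widest ranges were 9.98-fold for Top2a, 9.57-fold for Tpx2 and 9.56-fold for Nusap1, and the narrowest were 3.08-fold for Kif4, 3.57-fold for Kif23 and 3.58-fold for Ttk. Trp53 het 3 was the highest of the 12 libraries for 25 genes, Llgl cKO Trp53 het 2 and 3 for 4 each and Llgl cKO 3 for Ttk alone. Control 1 was the lowest for 21 genes.

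**Figure D3:**
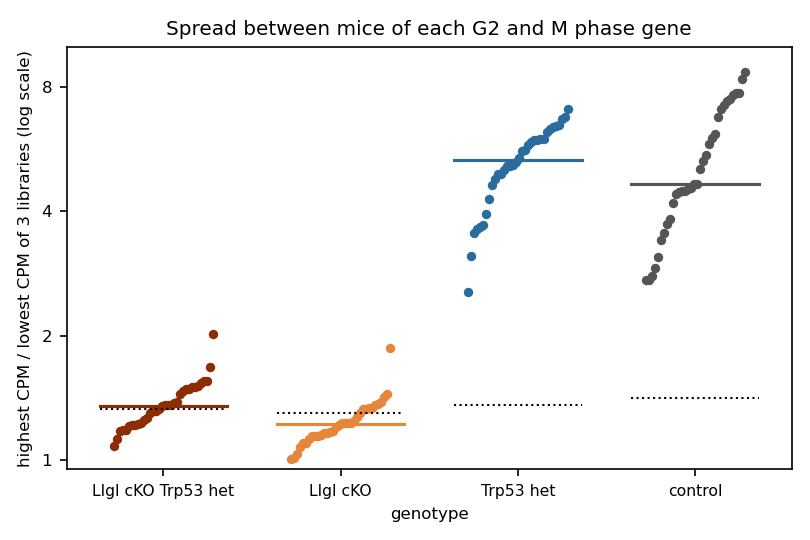
Ratio of the highest to the lowest CPM among the 3 libraries of each group (log axis), with a point for each of the 34 G2 and M phase genes, a solid line at their median and a dotted line at the median of all genes tested. The solid lines lie at 1.35 for Llgl cKO Trp53 het, 1.22 for Llgl cKO, 5.33 for Trp53 het and 4.66 for control, where the medians of all genes lie between 1.30 and 1.41.

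Other transcripts differed in the same libraries. Markers of the hair shaft and its inner root sheath, 9 of 10 listed genes tested, summed to 382, 97.1 and 114 CPM in Llgl cKO Trp53 het, 905, 3051 and 966 CPM in Llgl cKO, 5469, 4366 and 2047 CPM in Trp53 het and 6836, 4749 and 1364 in control, so that Trp53 het 3 and control 3 were the lowest of their groups. The fibroblast list, with 5 of 6 genes tested, summed to 171, 229 and 238 CPM in Llgl cKO Trp53 het, 209, 142 and 121 in Llgl cKO, 32.5, 34.2 and 138 in Trp53 het and 27.8, 57.1 and 142 in control. The level of that list came mostly from Dcn, with 127 to 2699 counts, while Lum had at most 9 counts. T cell markers, 6 of 6 tested, summed to between 9.22 and 20.01 CPM in Llgl cKO Trp53 het, 6.18 and 14.2 in Llgl cKO, 12.7 and 49.5 in Trp53 het and 22 and 33.8 in control, with Trp53 het 3 and control 3 the lowest of their groups. Adipocyte markers, 2 of 4 tested, summed to between 0.335 and 0.683 CPM in Llgl cKO Trp53 het, 1.67 and 3.5 in Llgl cKO, 2.48 and 17.4 in Trp53 het and 1.77 and 29.1 in control. Adipoq and Plin1 had 0 counts in 8 libraries each. Endothelial, erythroid and skeletal muscle markers were close to absent, with 1, 1 and 0 genes tested of 4 listed each. Llgl2 itself was lowest within each of the Trp53 het and control groups in replicate 3. The part of these differences in the levels of the G2 and M phase genes was not tested.

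Foxm1, a forkhead transcription factor that drives the G2 and M programme, lay at 62.9, 78.05 and 84.8 CPM in Llgl cKO Trp53 het, 69.8, 68.4 and 56.98 CPM in Llgl cKO, 16.3, 18.3 and 91.99 CPM in Trp53 het and 13.4, 17.8 and 82.5 CPM in control. Only replicate 3 of the Trp53 het and control groups reached the level of the Llgl groups, and Trp53 het 3 exceeded all 6 of those libraries. Its log2 fold change against control was 0.97 ± 0.72 (SE) in Llgl cKO Trp53 het (adjusted p = 0.6) and 0.76 ± 0.72 in Llgl cKO (adjusted p = 0.96), the largest of the 34 genes for Llgl cKO.

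The mitotic cyclins and the kinase they activate followed. Ccnb1, cyclin B1, which binds Cdk1 and brings cells into mitosis, lay at 35.1, 59.01 and 52.7 CPM in Llgl cKO Trp53 het, 39.9, 32.4 and 34.96 CPM in Llgl cKO, 10.99, 9.88 and 59.2 CPM in Trp53 het and 11.1, 12.9 and 49.7 CPM in control. Against control its log2 fold change was 0.97 ± 0.69 in Llgl cKO Trp53 het (adjusted p = 0.582) and 0.52 ± 0.69 in Llgl cKO (adjusted p = 0.986). Cdk1, the kinase at the centre of mitotic entry, lay at 51.3, 59.8 and 70.7 CPM in Llgl cKO Trp53 het, 48.03, 42.7 and 45.5 CPM in Llgl cKO, 13.2, 15.3 and 85.2 CPM in Trp53 het and 14.2, 16.3 and 77.9 CPM in control. The Llgl cKO Trp53 het libraries were all above the Llgl cKO libraries, and Trp53 het 3 and control 3 were above both groups. Its log2 fold change against control was 0.73 ± 0.73 in Llgl cKO Trp53 het (adjusted p = 0.711) and 0.31 ± 0.73 in Llgl cKO (adjusted p = 0.993). The other 2 genes of the group, Ccna2 (cyclin A2) and Ccnb2 (cyclin B2), had the same split between libraries. Without a stated strand setting, reads of Ccna2 cannot be told apart from those of Exosc9, which it overlaps.

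Among the mitotic kinases, Plk1, polo-like kinase 1, which acts in centrosome maturation and chromosome segregation, lay at 29.6, 45.3 and 37.6 CPM in Llgl cKO Trp53 het, 28.9, 27.4 and 29.4 CPM in Llgl cKO, 9.05, 11.6 and 45.5 CPM in Trp53 het and 11.1, 10.5 and 35.9 CPM in control. All 3 Llgl cKO Trp53 het libraries exceeded the 3 Llgl cKO libraries, and Trp53 het 3 was the highest of the 12. The log2 fold change against control was 0.95 ± 0.59 in Llgl cKO Trp53 het (adjusted p = 0.523) and 0.56 ± 0.59 in Llgl cKO (adjusted p = 0.974). Aurka, Aurora kinase A, averaged 27.2 ± 3.14 CPM in Llgl cKO Trp53 het, 20.6 ± 3.78 CPM in Llgl cKO, 14.1 ± 14.6 CPM in Trp53 het and 13.8 ± 11.9 CPM in control (SD, n = 3 each).

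The spindle checkpoint holds anaphase until every chromosome is attached, and the anaphase-promoting complex then marks mitotic proteins for destruction. Cdc20, an activator of that complex, lay at 69.3, 93.7 and 67.8 CPM in Llgl cKO Trp53 het, 65.3, 48.2 and 53.1 CPM in Llgl cKO, 20.9, 20.1 and 74.2 CPM in Trp53 het and 23.1, 20.3 and 62.9 CPM in control. It was among the 3 of 34 genes for which every Llgl cKO Trp53 het library exceeded every control library, the others being Cenpa and Kif23. Of all genes tested, 7.87% were higher without overlap in that comparison. Its log2 fold change against control was 1.11 ± 0.53 in Llgl cKO Trp53 het (unadjusted p = 0.0585, adjusted p = 0.384) and 0.64 ± 0.52 in Llgl cKO (adjusted p = 0.949). Cdc20 also had the highest level per length of the 34 genes, 27.6 CPM per kb of exon averaged over the 12 libraries. It overlaps Elovl1 in the annotation, so a part of its reads may be shared. Bub1, a checkpoint kinase at kinetochores, lay at 19.7, 19.9 and 24.95 CPM in Llgl cKO Trp53 het, 16.4, 20.3 and 17.4 CPM in Llgl cKO, 6.65, 8.28 and 37.2 CPM in Trp53 het and 4.25, 7.23 and 31.8 CPM in control. Trp53 het 3 and control 3 were above all 6 Llgl libraries, and its log2 fold change was the smallest of the 34 genes in Llgl cKO against control, at 0.29 ± 0.72 (adjusted p = 0.994). In Llgl cKO Trp53 het against control it was 0.55 ± 0.72 (adjusted p = 0.792). Ube2c, the ubiquitin-conjugating enzyme of the anaphase-promoting complex, had the largest log2 fold change of the 34 genes in Llgl cKO Trp53 het against control, 1.24 ± 0.65 (adjusted p = 0.445), with 36.6, 53.6 and 46.6 CPM in Llgl cKO Trp53 het and 9.81, 9.86 and 37.6 CPM in control. It overlaps Tnnc2. Ttk, the checkpoint kinase MPS1, and Bub1b, the checkpoint protein BubR1, completed the group. A list of 12 genes of the anaphase-promoting complex, holding core subunits and the activator Fzr1, was set beside them. Its median log2 fold change was 0.06 in Llgl cKO Trp53 het against control, with 8 of 12 above 0 and 0 called.

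Aurkb, Birc5 and Cdca8 encode parts of the chromosomal passenger complex, which corrects faulty attachments and then acts in cytokinesis. Their median log2 fold change was 0.92 in Llgl cKO Trp53 het against control, 0.50 in Llgl cKO against control and 0.12 in Trp53 het against control. Aurkb had the widest range within the controls of the 3, 5.89, 10.5 and 49.3 CPM, against 33.1, 43.9 and 50.1 CPM in Llgl cKO Trp53 het. Birc5, survivin, averaged 39.9 ± 6.43 CPM in Llgl cKO Trp53 het, 29.2 ± 2.36 CPM in Llgl cKO, 21.5 ± 21.1 CPM in Trp53 het and 20.8 ± 17.95 CPM in control (SD, n = 3 each).

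Centromere and kinetochore genes were led by Cenpa, the histone H3 variant that marks centromeres. It lay at 73.2, 83.3 and 70.7 CPM in Llgl cKO Trp53 het, 66.2, 54.1 and 48.4 CPM in Llgl cKO, 20.1, 21.8 and 73.1 CPM in Trp53 het and 21.1, 25.3 and 61.3 CPM in control, and had the smallest p of the 34 genes in Llgl cKO Trp53 het against control. That log2 fold change was 1.07 ± 0.49 (unadjusted p = 0.0537, adjusted p = 0.372). Ndc80, a subunit of the complex that ties kinetochores to microtubules, lay at 18.2, 24.7 and 28.3 CPM in Llgl cKO Trp53 het, 18.3, 13.8 and 13.8 CPM in Llgl cKO, 5.35, 5.38 and 22.9 CPM in Trp53 het and 4.58, 5.02 and 23.2 CPM in control. It had the largest log2 fold change of the 34 genes both in Llgl cKO Trp53 het against Trp53 het, 1.06 ± 0.65 (adjusted p = 0.489), and in Llgl cKO Trp53 het against Llgl cKO, 0.63 ± 0.64 (adjusted p = 1). Against control its change was 1.09 ± 0.66 in Llgl cKO Trp53 het (adjusted p = 0.507) and 0.46 ± 0.65 in Llgl cKO (adjusted p = 0.986). Ndc80 and its partner Nuf2 had the lowest levels per length of the 34 genes, 2.36 and 2.04 CPM per kb of exon. Cenpe, a kinetochore motor, and Cenpf, a large kinetochore-associated protein, had the same split between libraries.

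Kif11, the motor that pushes spindle poles apart, lay at 75.5, 84.6 and 113 CPM in Llgl cKO Trp53 het, 61.98, 67.9 and 71.3 CPM in Llgl cKO, 18.9, 19.9 and 118 CPM in Trp53 het and 14.6, 24.6 and 106 CPM in control. Every Llgl cKO Trp53 het library exceeded every Llgl cKO library. Its log2 fold change against control was 0.90 ± 0.76 in Llgl cKO Trp53 het (adjusted p = 0.65) and 0.46 ± 0.75 in Llgl cKO (adjusted p = 0.99). Tpx2, a spindle assembly factor that activates Aurora kinase A, had the largest log2 fold change of the 34 in Trp53 het against control, 0.31 ± 0.73 (adjusted p = 1), with 13.6, 19.2 and 86.04 CPM in Trp53 het and 8.99, 16.9 and 69.7 CPM in control. Kif4, a chromosome-bound kinesin, differed least between libraries, with 35.5, 38.5 and 43.2 CPM in Llgl cKO Trp53 het, 35.6, 32.1 and 37.5 CPM in Llgl cKO, 20.6, 20.9 and 52.4 CPM in Trp53 het and 17.2, 17.01 and 47.5 CPM in control. It overlaps Pdzd11. Kif2c, a microtubule depolymerising kinesin, Nusap1, a spindle microtubule binder that overlaps Oip5, and Hmmr, a hyaluronan receptor that also binds spindle microtubules, had the same split.

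In the central spindle and cytokinesis group, Prc1, which bundles the microtubules between separating chromosomes, lay at 74.7, 84.6 and 102 CPM in Llgl cKO Trp53 het, 63.5, 62.98 and 63.4 CPM in Llgl cKO, 27.2, 21.5 and 106 CPM in Trp53 het and 23.5, 27.2 and 87.9 CPM in control. The 3 Llgl cKO libraries differed by a factor of 1.01 between the highest and the lowest. Its log2 fold change against control was 0.90 ± 0.59 in Llgl cKO Trp53 het (adjusted p = 0.545) and 0.44 ± 0.59 in Llgl cKO (adjusted p = 0.986), and the gene overlaps Rccd1. Anln, anillin, a scaffold of the contractile ring, lay at 46.5, 47.6 and 72.3 CPM in Llgl cKO Trp53 het, 41.98, 42.3 and 48.00 CPM in Llgl cKO, 14.1, 17.7 and 72.9 CPM in Trp53 het and 14.1, 19.6 and 65.6 CPM in control. Llgl cKO Trp53 het 3 was close to Trp53 het 3 and above the other Llgl libraries. Against control the log2 fold change of Anln was 0.73 ± 0.64 in Llgl cKO Trp53 het (adjusted p = 0.665) and 0.40 ± 0.64 in Llgl cKO (adjusted p = 0.987). Kif23, a central spindle kinesin, averaged 65.3 ± 5.35 CPM in Llgl cKO Trp53 het, 46.7 ± 0.816 CPM in Llgl cKO, 37.9 ± 27.8 CPM in Trp53 het and 34.1 ± 20.8 CPM in control (SD, n = 3 each). Kif20a, a kinesin of the cleavage furrow that overlaps Cdc23, and Ect2, the RhoA activator that starts the contractile ring, were the other genes of the group.

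Mki67, which coats mitotic chromosomes and encodes the proliferation marker Ki-67, and Top2a, topoisomerase II alpha, which untangles sister chromatids, had the highest CPM of the 34 genes and were among the least shifted between groups. Mki67 lay at 225, 204 and 277 CPM in Llgl cKO Trp53 het, 184, 245 and 195 CPM in Llgl cKO, 65.8, 64.7 and 433 CPM in Trp53 het and 50.04, 80.6 and 369 CPM in control. Top2a lay at 199, 192 and 277 CPM in Llgl cKO Trp53 het, 143, 199 and 203 CPM in Llgl cKO, 62.1, 64.5 and 371 CPM in Trp53 het and 37.1, 72.6 and 322 CPM in control. For both, Trp53 het 3 and control 3 were above all 6 Llgl libraries. Mki67 had the smallest log2 fold change of the 34 genes in Llgl cKO Trp53 het against control, 0.49 ± 0.79 (adjusted p = 0.839), and 0.32 ± 0.79 in Llgl cKO against control (adjusted p = 0.994). The corresponding values of Top2a were 0.62 ± 0.79 (adjusted p = 0.781) and 0.33 ± 0.78 (adjusted p = 0.993). Cdca3, a trigger of mitotic entry, averaged 47.8 ± 4.85 CPM in Llgl cKO Trp53 het, 37.8 ± 5.39 CPM in Llgl cKO, 33.2 ± 30.9 CPM in Trp53 het and 29.6 ± 28.3 CPM in control (SD, n = 3 each). Foxm1 and Cdca8 also overlap annotated genes, 4933413G19Rik and 9930104L06Rik.

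In the comparison of Llgl cKO Trp53 het with control, which takes both genetic changes together, the fitted log2 fold changes were above 0 for 34 of 34 genes, with a median of 0.90 and a range from 0.49 for Mki67 to 1.24 for Ube2c. Over all genes tested 49.0% were above 0, with a median of -0.01. By edgeR's quasi-likelihood test with Benjamini-Hochberg adjustment 0 of 34 genes were called higher, where 0.343% of all genes tested were (50 of 14582), and 0 of 34 had an unadjusted p below 0.05, where 5.77% of all genes did. DESeq2 called 0 as well, where it called 1.45% of all genes higher. It gave no adjusted p for Cenpf, so in this and the later comparisons only 33 of the 34 could be called by it. The 95% intervals of all 34 reached below 0, and that of Cenpa came closest to excluding it, from -0.02 to 2.15. The groups did not overlap for 3 of 34 genes, where 7.87% of all genes were higher without overlap. The differences between group means thus lay within the spread between mice.

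Without control 3 and Trp53 het 3 the same comparison called 34 of 34 genes higher, with a median log2 fold change of 1.93 and adjusted p from 0.000126 to 0.0161 (edgeR), where 3.63% of all genes were called higher. These libraries were known to stand apart from an earlier analysis of these data and stand out on these very genes, so the calls describe how far the result rests on them and are not independent evidence of a difference. Leaving out control 3 alone gave a median of 1.93 with 0 of 34 called.

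Llgl cKO against control addressed the change labelled as loss of Llgl1 and Llgl2, with Trp53 not floxed, although the counts showed a lower level of Llgl2 alone and Llgl1 above that of the controls. The log2 fold changes were above 0 for 34 of 34 genes, with a median of 0.50 and a range from 0.29 for Bub1 to 0.76 for Foxm1, where 48.8% of all genes were above 0. Genes called higher numbered 0 of 34, where 0.0892% of all genes were, and 0 had an unadjusted p below 0.05, where 2.64% of all genes did. Cenpa and Ttk had the smallest p, with log2 fold changes of 0.64 ± 0.49 (adjusted p = 0.943) and 0.59 ± 0.48 (adjusted p = 0.949). DESeq2 called 0 of 34, where it called 0.336% of all genes. For 0 of 34 genes did the groups fail to overlap upward, where 4.49% of all genes did, since control 3 lay above at least the lowest Llgl cKO library for every gene. Without control 3 and Trp53 het 3 the median was 1.56, and 33 of 34 genes were called higher, where 1.61% of all genes were. Those libraries stand out on these very genes, so here too the calls are not independent evidence of a difference. Without control 1 the median was 0.16.

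The comparison of Llgl cKO Trp53 het with Trp53 het asked the same of Llgl in mice labelled Trp53 +/flox. The library labelled Trp53 het 3 had Trp53 at 115 CPM, within the range of the controls. The log2 fold changes were above 0 for 34 of 34 genes, with a median of 0.75 and a range from 0.29 for Bub1 to 1.06 for Ndc80, where 50.2% of all genes were above 0. Of the 34, 0 were called higher, where 0.439% of all genes were, and 0 had an unadjusted p below 0.05, where 6.88% of all genes did. Cenpa and Cdc20 again had the smallest p, with log2 fold changes of 0.97 ± 0.49 (adjusted p = 0.386) and 0.99 ± 0.52 (adjusted p = 0.407). DESeq2 called 0 of 34, where it called 1.81% of all genes higher. Leaving out Trp53 het 3 raised the median to 1.93 with 1 gene called, Cenpa, where 0.606% of all genes were called higher. Without control 3 as well, 34 of 34 genes were called higher, where 3.6% of all genes were. Calls made without these libraries are again not independent evidence, since the libraries stand out on these very genes.

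Averaged over both Trp53 backgrounds, 6 Llgl libraries against 6 others, the change in the 34 genes had a median of 0.61 and ran from 0.29 for Bub1 to 0.86 for Ube2c. It was above 0 for 34 of 34, where 49.6% of all genes were, and 0 were called higher, where 1.18% of all genes were. The count with an unadjusted p below 0.05 was 2 of 34, where 8.19% of all genes had one, and the 2 were Cenpa, at 0.80 ± 0.35 (unadjusted p = 0.0411, adjusted p = 0.25), and Cdc20, at 0.81 ± 0.37 (unadjusted p = 0.0497, adjusted p = 0.273). DESeq2 called 0 of 34, where it called 2.78% of all genes higher. Without Trp53 het 3 the number called was 5, namely Ccnb2, Cdc20, Ube2c, Cenpa and Kif23, where 1.77% of all genes were called higher. With the replicate number as a block 1 gene was called, Ttk, with a log2 fold change of 0.72 (adjusted p = 0.0268), where 1.63% of all genes were called higher. Under that block 31 of 34 genes had an unadjusted p below 0.05 in the average Llgl change, where 10.4% of all genes did. The count was 29 in Llgl cKO Trp53 het against control (7.35% of all genes), 4 in Llgl cKO against control (3.26%) and 23 in Llgl cKO Trp53 het against Trp53 het (8.54%), with 0 called in each after adjustment. The block treats equal replicate numbers as paired across all 4 groups, which the labels do not state. Replicate 3 was the high library of both Trp53 het and control, so the block can take up that difference. These counts therefore describe a setting and are not evidence from paired mice. Leaving out Trp53 het 3 and control 3 together, 34 were called with a median of 1.77, where 8.03% of all genes were called higher. Calls made without these libraries describe how far the result rests on them and are not independent evidence of a difference.

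**Figure D4:**
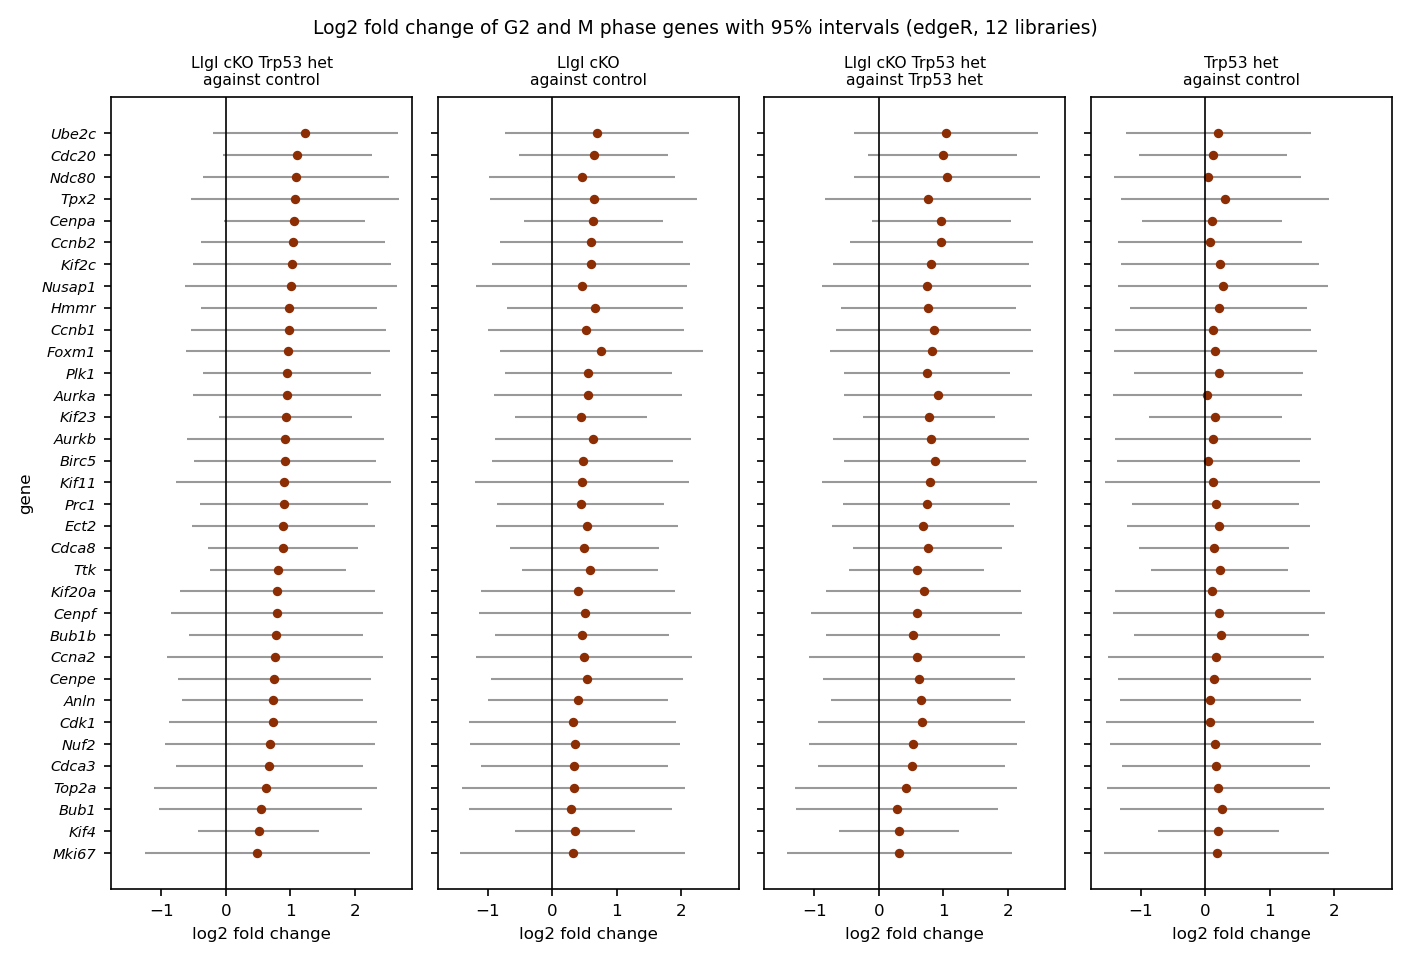
Log2 fold changes of the 34 G2 and M phase genes with their 95% intervals (edgeR, 12 libraries) in 4 comparisons, with genes ordered by the change in Llgl cKO Trp53 het against control. All points lie to the right of 0, and all intervals cross it.

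No difference between Trp53 het and control mice was detected in these genes. The log2 fold changes of Trp53 het against control had a median of 0.16 and ran from 0.03 for Aurka to 0.31 for Tpx2, where 46.9% of all genes were above 0. With edgeR and with DESeq2 alike, 0 of 34 were called and 0% of all genes were called higher, and 0 of 34 had an unadjusted p below 0.05, where 0.171% of all genes did. The median was 1.19 without control 3 and -1.08 without the library labelled Trp53 het 3, whose Trp53 level was within the range of the controls. Without both it was -0.01, with 15 of 34 genes above 0. Intervals were wide, and that of Kif4, which had the smallest p of the 34 with a log2 fold change of 0.20 ± 0.43 (adjusted p = 1), ran from -0.74 to 1.14.

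Llgl cKO Trp53 het against Llgl cKO is the comparison in which neither group split. All 34 log2 fold changes were above 0, with a median of 0.39 and a range from 0.16 for Kif4 to 0.63 for Ndc80, where 49.8% of all genes were above 0. Every Llgl cKO Trp53 het library exceeded every Llgl cKO library for 18 of 34 genes, where 5.84% of all genes were higher without overlap. The 18 were Ccna2, Ccnb2, Cdk1, Plk1, Bub1b, Cdc20, Ube2c, Birc5, Cdca8, Cenpa, Cenpf, Kif11, Kif2c, Tpx2, Nusap1, Prc1, Kif20a and Kif23. Of these, Kif23 stood at 59.9, 65.5 and 70.6 CPM in Llgl cKO Trp53 het against 45.9, 47.5 and 46.6 CPM in Llgl cKO, and had the smallest p of the 34, with a log2 fold change of 0.48 ± 0.46 (adjusted p = 1). In the fit over 12 libraries, in which the spread of the Trp53 het and control mice also enters the error, 0 of 34 were called and 0 had an unadjusted p below 0.05, where 0% and 1.87% of all genes did. DESeq2 called 0 of 34, where it called 0.0137% of all genes higher. Fitted on these 6 libraries alone, 19 of 34 had an unadjusted p below 0.05, where 2.16% of all genes were higher at that threshold. After adjustment 0 of 34 were called, and the smallest adjusted p was 0.695. The same mice enter all 34 genes, so these counts of genes are not separate observations. Trp53 was at 98.3 CPM in Llgl cKO Trp53 het 1, above the other 2 mice of that group, and that mouse also had the lowest summed level of the 34 genes in its group. The Trp53 het group went the other way. There replicate 3 had both the highest Trp53, 115 CPM, and the highest summed level, 2805 CPM. A relation between the level of Trp53 and that of the 34 genes was not tested.

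Whether the Llgl change depended on Trp53 was tested directly as an interaction. The interaction had a median of 0.20 on the log2 scale over the 34 genes, 32 of 34 above 0, and ran from -0.04 for Kif4 to 0.60 for Ndc80, where 51.0% of all genes were above 0. Called genes numbered 0 of 34, where 0% of all genes were called higher, and 0 of 34 had an unadjusted p below 0.05, where 1.09% of all genes did. DESeq2 also called 0 of 34. Ndc80 had the smallest p of the 34 (adjusted p = 1), with a 95% interval from -1.43 to 2.62. The library labelled Trp53 het 3 enters this and the next comparison with Trp53 at a control level. The average Trp53 change over both Llgl backgrounds had a median of 0.26, from 0.17 for Mki67 to 0.42 for Nusap1, where 47.2% of all genes were above 0, with 0 of 34 called by either tool, where 0% of all genes were, and 0 of 34 with an unadjusted p below 0.05, where 0.658% of all genes did. Kif23 had the smallest p in it, with a log2 fold change of 0.32 ± 0.33 (adjusted p = 1).

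Further genes of the cell cycle were described from lists. The 64 other genes of G2 and M phase had a median log2 fold change of 0.65 in Llgl cKO Trp53 het against control (63 of 64 above 0), 0.40 in Llgl cKO against control (62 of 64) and 0.26 in Llgl cKO Trp53 het against Llgl cKO (62 of 64), and 0 of 64 were called in each. Their summed level was 2191, 2439 and 2684 CPM in Llgl cKO Trp53 het, 2087, 2133 and 2125 CPM in Llgl cKO, 1041, 1052 and 3247 CPM in Trp53 het and 922, 1110 and 2946 in control, the same split as for the 34. Depdc1b had the smallest p among them in Llgl cKO Trp53 het against control, with a log2 fold change of 1.74 ± 0.67 (SE; adjusted p = 0.272).

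The 40 genes of S phase and DNA replication, which act before G2, had smaller medians. They were 0.27 in Llgl cKO Trp53 het against control (35 of 40 above 0), 0.20 in Llgl cKO against control (34 of 40) and 0.05 in Llgl cKO Trp53 het against Llgl cKO (30 of 40), with 0 called. Summed, they stood at 1867, 1308 and 2036 CPM in Llgl cKO Trp53 het, 1362, 1871 and 1828 CPM in Llgl cKO, 928, 956 and 2491 CPM in Trp53 het and 703, 1114 and 2619 in control. The 34 genes summed to 0.974, 1.57 and 1.13 times this S phase sum in Llgl cKO Trp53 het, 1.16, 0.878 and 0.897 times in Llgl cKO, 0.587, 0.594 and 1.13 times in Trp53 het and 0.649, 0.563 and 0.920 times in control.

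**Figure D5:**
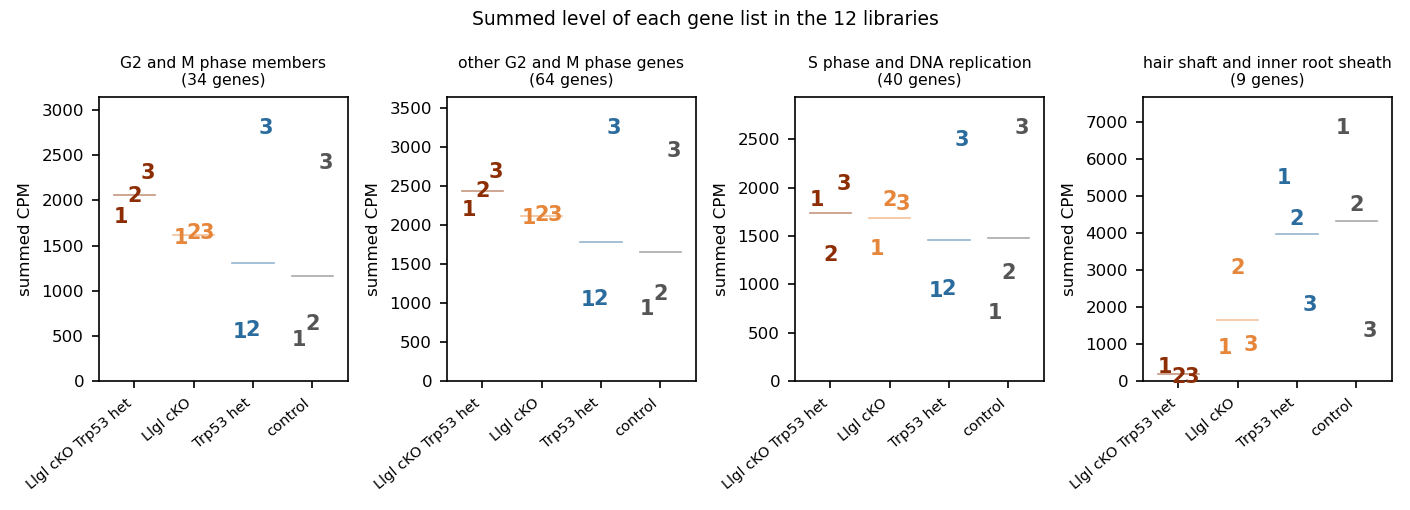
Summed CPM of 4 gene lists in each library, with numerals giving the replicate number and lines the group means (vertical axes start at 0). Replicate 3 of Trp53 het and of control stands with or above the Llgl libraries for both G2 and M phase lists and for S phase genes, and is the lowest of its group for hair shaft and root sheath genes.

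Of the 14 regulators of G1 and of the passage into S phase, 1 was called higher in Llgl cKO Trp53 het against control, where 0.343% of all genes were. That gene was Ccnd3, cyclin D3, which rose by 0.55 on the log2 scale (adjusted p = 0.0399). In the average Llgl change, where 1.18% of all genes were called higher, Ccnd3 was again the 1 of 14 called and rose by 0.42 (adjusted p = 0.0151). Of the 6 CDK inhibitors tested, 1 was called in that comparison, Cdkn2b, an inhibitor of cyclin D kinases, which rose by 0.64 (adjusted p = 0.0344). The 14 subunits of the MuvB, DREAM and NF-Y complexes, which bind the promoter elements described above, had a median of 0.09 in Llgl cKO Trp53 het against control, with 12 of 14 above 0 and 0 called. Nfya, the NF-Y subunit that contacts CCAAT, had a log2 fold change of -0.47 ± 0.14 (SE; adjusted p = 0.141). The 18 p53 target genes had a median of 0.01 in Llgl cKO Trp53 het against control (9 of 18 above 0) and -0.02 in the average Trp53 change (4 of 18 above 0), with 0 called in each.

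Epidermal and hair lists were set beside the 34 genes. Genes of the hair shaft and its inner root sheath fell in Llgl cKO Trp53 het against control, 9 of 9 called lower with a median of -4.52, where 0.905% of all genes were called lower. In the average Llgl change 9 of 9 were called lower with a median of -2.94, where 2.15% of all genes were. T cell markers Il2rb and Cd3g fell in the average Llgl change by 2.44 and 2.32 on the log2 scale (adjusted p = 0.0228 and 0.0352), 2 of 6 listed, and both adipocyte markers tested were called lower. Ivl, involucrin of the upper epidermis, fell by 0.93 (adjusted p = 0.0317), 1 of 6 suprabasal genes, and Lef1, a Wnt effector of the hair matrix, rose by 0.92 (adjusted p = 0.0266), 1 of 6. Msx2 of the same hair matrix list went the other way in Llgl cKO Trp53 het against control, at -1.04 (adjusted p = 0.191). The hair matrix list summed to 280, 275 and 230 CPM in Llgl cKO Trp53 het, 330, 383 and 254 in Llgl cKO, 263, 245 and 247 in Trp53 het and 280, 258 and 259 in control. The 7 basal keratinocyte genes had a median of -0.03 in the average Llgl change with 0 called. Mitochondrially encoded transcripts were above 0 for 6 of 6 tested, with a median of 0.46 in Llgl cKO Trp53 het against control and 0 called. The listed mt-Co2, mt-Co3 and mt-Atp6 had at most 2, 1 and 1 counts in any library and were not tested. The part of these changes in the levels of the 34 genes was not tested.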

How the data were processed

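Total RNA of skin epidermis was made into stranded mRNA libraries with the Illumina TruSeq kit, per the labels' protocols. The submitters' processing notes name GRCm38, the aligner STAR, featureCounts 1.6.4 and DESeq2 2.11.40.8. Their roles, the annotation and the strand setting are not given in the sources used here. The deposited table held the authors' raw counts per gene for 12 libraries, with no normalization. Totals ran from 6738720 to 14509507.

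The count model was run in edgeR 4.0.16 (R 4.3.3): TMM scaling, filterByExpr with a minimum count of 10, and a robust quasi-likelihood model with 4 group means and 8 residual degrees of freedom. Calls were made at an adjusted p below 0.05, by Benjamini and Hochberg's method over 14582 genes. The biological coefficient of variation was 23.8%. Adjusted p-values are from edgeR unless DESeq2 1.42.0 is named, and errors of log2 fold changes are standard errors. The stated design gives 3 newborn mice per group, so p-values measure the spread between mice. Within each group no pair of libraries agreed within sampling noise, and pairs across groups were not compared. The model was tested on simulated counts drawn independently for each gene. The simulation held no mice that were high or low for many genes together, so it does not cover that feature of these data.

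The 34 genes and the 20 lists were chosen with earlier results of these data known, so the lists are described by counts and medians. Of 245 list entries, 240 were matched by symbol and 4 by identifier. Flg, whose symbol has several identifiers, and Krt85, without a match, were left out. Full values are given for 12 genes fixed to stand for the roles and, per comparison, for the genes with the smallest p and the highest and lowest log2 fold change. Aurka, Birc5, Aurkb, Cdca3 and Kif23 also appear by their levels alone, chosen after their values were seen. Promoter windows are from RefSeq on GRCm38.p6, and overlaps between genes from GENCODE on GRCm38. Figures were drawn with matplotlib 3.10.9.

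Replicates with the same number in Trp53 het and control deviated together from their group means, with correlations across genes of 0.62, 0.21 and 0.82. Each was above 0.1, the rule set for pairing, and the other pairs of groups did not meet that rule. Unequal numbers also passed 0.1, at 0.46 for Trp53 het 2 with control 1 and 0.18 for Trp53 het 1 with control 2. Replicate 3 stood apart in both groups, so these correlations cannot show that the numbers pair mice. The main fit used no pairing. The labels give no batch. Alternatives were scaling by median of ratios or by upper quartile, no filter, at least 1 CPM in 3 libraries, only the groups compared, a replicate block, DESeq2, each library left out, and control 3 and Trp53 het 3 left out together.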

Additional observations from a re-analysis of the deposited data

How the results depend on the processing

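Direction held for the medians of the 34 genes under median-of-ratios and upper-quartile scaling, both other filters, DESeq2 and the fits on only the groups compared, and 0 of 34 genes were called under each. DESeq2 gave no adjusted p for Cenpf. The block on replicate number assumes a pairing of mice that was not shown. With it, 1 gene, Ttk, was called in the average Llgl change (adjusted p = 0.0268), and Aurka in Trp53 het against control reversed to -0.046. No other call of the 34 genes changed with the block, and the medians under it were 1.24 for Llgl cKO Trp53 het against control, 0.87 for Llgl cKO against control, 1.125 for Llgl cKO Trp53 het against Trp53 het and 1.01 for the average Llgl change. Without control 3 and Trp53 het 3 the genes called were 34 in Llgl cKO Trp53 het against control (median 1.93) and 33 in Llgl cKO against control (median 1.56). They were 34 in Llgl cKO Trp53 het against Trp53 het (median 1.93) and 34 in the average Llgl change (median 1.77). Those libraries stand out on these very genes, so these calls are not independent evidence of a difference. Aurka in Trp53 het against control was -0.32 without them.

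Leaving out a single library, the median of the 34 genes ran from 0.57 (without control 1) to 1.93 (without control 3) in Llgl cKO Trp53 het against control, 0.16 (without control 1) to 1.57 (without control 3) in Llgl cKO against control, 0.36 (without Trp53 het 1) to 1.93 (without Trp53 het 3) in Llgl cKO Trp53 het against Trp53 het, -1.08 (without Trp53 het 3) to 1.19 (without control 3) in Trp53 het against control, and -0.87 (without control 3) to 1.44 (without Trp53 het 3) in the interaction. Genes called ran from 0 to 1 in Llgl cKO Trp53 het against Trp53 het and from 0 to 5 in the average Llgl change. Both were highest without Trp53 het 3, where 0.606% and 1.77% of all genes were called higher. Reversals by a left-out library had these log2 ranges. In Llgl cKO against control, Bub1 ran from -0.12 to 1.61, Cdk1 from -0.054 to 1.57, Mki67 from -0.11 to 1.67 and Top2a from -0.12 to 1.72. In Llgl cKO Trp53 het against Trp53 het, Bub1 ran from -0.11 to 1.53 and Mki67 from -0.094 to 1.85. In Trp53 het against control, Aurka ran from -1.31 to 1.03, Kif4 from -0.40 to 0.89, Ttk from -0.51 to 0.82 and Tpx2 from -0.99 to 1.6. In the average Trp53 change, Kif23 ran from -0.083 to 0.64, Mki67 from -0.59 to 0.85, Nusap1 from -0.28 to 1.05 and Ube2c from -0.27 to 0.86. In the interaction, Kif4 ran from -0.73 to 0.56, Ndc80 from -0.62 to 1.69 and Kif23 from -0.31 to 1.13. In all, 17 of 69 results for a named gene reversed under at least 1 alternative. Calls among all genes ran from 25 to 351 in Llgl cKO Trp53 het against control (182 with 12 libraries), 15 to 42 in Llgl cKO against control (33), 24 to 322 in Llgl cKO Trp53 het against Trp53 het (198) and 164 to 697 in the average Llgl change (485). DESeq2 called 644, 114, 722 and 1034 genes in these 4 comparisons and 49 in Llgl cKO Trp53 het against Llgl cKO, where edgeR called 0. Fits on only the groups compared called 49 in Llgl cKO Trp53 het against control and 117 in Llgl cKO Trp53 het against Trp53 het. Without control 3 and Trp53 het 3 the 4 counts were 1139, 413, 1088 and 2334. The cause of these shifts was not tested.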

Other observations

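Ratios were taken for 2 pairs among the 34 genes. The count of Cdc20 per count of Top2a was 0.349, 0.487 and 0.245 in Llgl cKO Trp53 het, 0.455, 0.242 and 0.261 in Llgl cKO, 0.336, 0.311 and 0.200 in Trp53 het and 0.621, 0.280 and 0.195 in control. Control 3 and Trp53 het 3 had the lowest ratios of the 12 libraries, and control 1 had the highest. The ratio of Ccnb1 to Top2a counts was 0.176, 0.307 and 0.190 in Llgl cKO Trp53 het, 0.278, 0.163 and 0.172 in Llgl cKO, 0.177, 0.153 and 0.160 in Trp53 het and 0.2996, 0.178 and 0.154 in control. Here control 3 and Trp53 het 3 lay close to Llgl cKO 2, and Trp53 het 2 had the lowest ratio of the 12 libraries. These genes were chosen after their values were seen, and no test was run on the ratios.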
